A study of Mus musculus with 21 samples.

Results

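The genes examined were the nuclear genes for the subunits of the mitochondrial respiratory chain and of ATP synthase in mouse glomeruli. Members were taken by gene symbol: genes whose symbol begins with Ndufa, Ndufb, Ndufc, Ndufs, Ndufv, Sdha to Sdhd, Uqcr, Cyc1, Cox4i, Cox5, Cox6, Cox7, Cox8 or Atp5, leaving out Ndufaf genes and symbols marked as pseudogenes. The rule took 91 genes of the 35598 in each table, and these carry 90 symbols because Atp5o stands under 2 identifiers. Of the 91, 86 were counted as subunit genes: 36 of complex I, 4 of complex II, 9 of complex III, 20 of complex IV and 17 of complex V. Ndufa4 and Ndufa4l2, named for complex I, were placed with complex IV, of which Ndufa4 is a subunit. Cox7a2l, known as a factor in joining complexes into supercomplexes, was also counted with complex IV. The other 5 genes carry a matching name without being subunits: 4 assembly factors of complex II (Sdhaf1 to Sdhaf4), and Atp5s.

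Glomeruli of 21 female mice, 3 months old, were cut by laser out of kidney cryosections and read by 3′ tag RNA-seq, which sequences the ends of polyadenylated transcripts, giving 21 libraries whose spread is taken as the spread between mice. Mice with floxed Epac1 alleles (Epac1fl/fl) and no Cre are called flox. Mice with the same alleles that also carry a podocyte Cre, which removes Epac1 there, are called cKO, so that all 6 groups carry the floxed alleles. The study concerned podocyte Epac1, a cyclic AMP sensor encoded by Rapgef3, in glycolysis and in the course of glomerulonephritis. Decomplemented nephrotoxic serum was given into a vein on each of 2 days in a row, and the mice were killed at day 4 (3 flox, 4 cKO) or day 11 (4 flox, 4 cKO). Control mice received PBS (3 flox, 3 cKO). Cre acts in podocytes, whereas whole glomeruli were collected, and in such bulk samples fewer cells of a type and less RNA per cell cannot be told apart.

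The respiratory chain passes electrons from NADH (complex I) and succinate (complex II) through ubiquinone to complex III, then through cytochrome c to complex IV and oxygen, and complexes I, III and IV pump protons that drive ATP synthesis by complex V. Most subunits are encoded in the nucleus and imported, while a small core is encoded in mitochondrial DNA. In the kidney the proximal tubule is especially rich in mitochondria and depends on oxidative phosphorylation, whereas glomerular cells hold fewer mitochondria.

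Rapgef3 itself ran from 124 to 346 CPM in the flox libraries and from 63.3 to 199.01 CPM in the cKO libraries (CPM, read counts scaled to the TMM-adjusted library size), with medians lower in cKO under PBS (299 and 137 CPM) and at day 4 (217 and 135 CPM) and not at day 11 (170 and 184 CPM); where its tags lie relative to the deleted part is not given in the sources used here. The smallest library, cKO day 11 replicate 3, held 4550550 reads and the largest 24295712. The 9 podocyte markers of the list used had reads in all 21 libraries, so the labelled tissue was present, and the 17 proximal tubule markers were also read (summed level 685 to 7934 CPM). Within day 11 flox, replicate 3 stood apart, with the lowest level of mitochondrially encoded subunits of all libraries (25861 CPM), the lowest tubule level (685 CPM) and 30.1% of its reads on 1 ribosomal RNA gene. The cKO day 4 replicate 3 library had the fewest genes detected (7871) and the highest tubule level (7934 CPM).

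Of the 91 members, 73 had reads in every library and 2 in none. After the filter on low counts 87 were tested, and Cox7b2, Cox8b, Cox8c and the second Atp5o entry were not. Averaged over the libraries, levels among the tested genes of a complex ran from 35.2 CPM (Ndufa1) to 358 CPM (Ndufa2) in complex I, from 1.96 CPM (Sdhd) to 295 CPM (Sdhb) in complex II, from 39.4 CPM (Uqcrfs1) to 352 CPM (Uqcrh) in complex III, from 4.51 CPM (Cox6a2) to 776 CPM (Cox8a) in complex IV and from 40.8 CPM (Atp5g2) to 503 CPM (Atp5k) in complex V. The median biological coefficient of variation was 0.589 over the tested members, against 1.68 over all 13898 genes tested. The genes at large were not matched to the members in level, and the part of level in this difference was not tested. Read ends can be shared with near-identical copies. In the last 300 bases of the annotated transcripts, 60 of the 91 members shared no stretch of 50 bases with another gene, and 6 shared over 50% of such stretches, mostly with pseudogenes. Those 6 (the second Atp5o entry, Atp5l, Cox7c, Atp5h, Atp5g2 and Ndufs3) are uncertain.

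Promoters of respiratory genes are known to bind the factors NRF1, GABP (an ETS factor), YY1 and ERR. The promoters of 3 subunits with an unadjusted p under 0.05 at day 4 in 1 of the genotypes are printed to show where such letters lie. More members met that p, and all 3 printed hold a match, so they do not show how common matches are. Binding of these factors was not tested. Cox6a1 is a small subunit of complex IV, Atp5k is a membrane subunit of complex V and Atp5g3 encodes its c ring. Windows of 300 bases (250 before to 50 after each RefSeq start, GRCm38.p6) were found for 71 of the 90 symbols and searched on both strands. A gene was counted where any of its windows held a match, with 76 windows for the 71 members and 13462 for 10510 other tested genes. The NRF1 palindrome, whose letters are in capitals in the first 2 promoters, stood in 5 of 71 members (7.04%), 2.18% of the other tested genes and 1.07% of all genes with a window. The YY1 letters AAGATGGCG stood in 7 of 71 members (9.86%), 3.34% and 1.64%, and the ERR letters TCAAGGTCA in only 2 of 71 (2.82%), 0.324% and 0.466%. For the GABP letters CCGGAAGT the order differed, with 7.04% of members, 8.64% of other tested genes and 4.31% of all genes with a window. No match of 1 factor overlapped that of another, and Cox8a held 2 GABP matches, of which 1 lay across the start. The 250 bases before the start are printed on the gene's strand, 5′ to 3′, with the match in capitals: NRF1 in Cox6a1 (chr5:115348959-115349208, minus strand) and Atp5k (chr5:108434400-108434649, minus strand), and ERR, on the opposite strand, in Atp5g3 (chr2:73911327-73911576, minus strand).
Cox6a1: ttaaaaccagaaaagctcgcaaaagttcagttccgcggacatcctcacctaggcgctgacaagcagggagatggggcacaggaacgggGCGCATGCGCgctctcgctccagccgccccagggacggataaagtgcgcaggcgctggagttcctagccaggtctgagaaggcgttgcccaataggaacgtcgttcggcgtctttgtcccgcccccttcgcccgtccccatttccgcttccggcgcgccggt
Atp5k: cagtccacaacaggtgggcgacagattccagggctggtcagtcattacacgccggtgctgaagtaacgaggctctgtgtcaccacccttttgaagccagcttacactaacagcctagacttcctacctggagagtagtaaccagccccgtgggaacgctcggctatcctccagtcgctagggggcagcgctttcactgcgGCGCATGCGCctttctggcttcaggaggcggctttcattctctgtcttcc
Atp5g3: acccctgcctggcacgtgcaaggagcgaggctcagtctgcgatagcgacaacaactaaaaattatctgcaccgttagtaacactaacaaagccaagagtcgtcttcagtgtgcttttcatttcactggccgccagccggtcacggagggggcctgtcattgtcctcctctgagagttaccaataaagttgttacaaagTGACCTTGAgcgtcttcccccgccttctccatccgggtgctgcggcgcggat

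Summed over subunits, the level stood highest at day 4 in both genotypes and was near or under the PBS level at day 11. In flox glomeruli the sum over all subunits was 13030.3, 13694 and 13662 CPM under PBS and 16648, 16712 and 16588 CPM at day 4. All 3 day 4 libraries lay above all 3 controls, with means of 13462 ± 374 (SD, n = 3) and 16649 ± 61.8 (SD, n = 3), a ratio of 1.24 (means in CPM). In cKO glomeruli the sum was 11588, 14084 and 16593 CPM under PBS and 17545, 20736, 21122 and 14706 CPM at day 4, where the groups overlapped and the ratio of means was 1.32. At day 11 the sum was 14319, 15280.2, 9348 and 14382 CPM in flox mice and 13195, 10261, 11560.2 and 13166 CPM in cKO. Both day 11 groups overlapped their controls, with ratios of 0.990 and 0.855. No p is given for these sums, since they are scores over chosen genes.

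Complexes I, IV and V took most of the sum in every library, and the small share of complex II varied most in relative terms. The shares are of 3′ tags, which are read once near the end of a transcript and are not divided by its length. Complex I (NADH dehydrogenase) made up a median of 30.8% of the sum over libraries (range 28.9% to 36.5%), complex V 28.2% (23.8% to 31.1%), complex IV 25.4% (20.4% to 28.4%), complex III 11.6% (9.25% to 14.3%) and complex II 3.61% (2.46% to 5.78%). In flox at day 4, the groups did not overlap for complex III (1626, 1611 and 1362 CPM under PBS, 1964, 1942 and 2000.0 CPM at day 4), complex IV (3271, 3608 and 3367 CPM against 4292, 4214 and 4705 CPM) and complex V (3380.2, 3969 and 3616 CPM against 4619, 4426 and 4589 CPM). Their ratios were 1.28, 1.29 and 1.24. Complex I (ratio 1.19) and complex II (1.10) overlapped their controls. In cKO at day 4 all 5 complexes overlapped their controls, with 3 of 4 libraries above every control for complexes I, II, IV and V and 2 of 4 for complex III. Complex V had the highest of these ratios at 1.47 and complex II the lowest at 1.14. Of the complexes at day 11, only complex II in cKO did not overlap its controls, lying below them at 487, 301, 536 and 491 CPM against 584, 543 and 596 CPM. In the deposited TPM values, which divide by transcript length, the cKO day 4 ratio shrank for complex III (log2 ratio 0.49 in CPM, 0.15 in TPM) and complex IV (0.38 and 0.12). In complex II the log2 ratio was 0.18 in CPM and -0.0040 in TPM. Some separations held only in CPM. In TPM, complex V in flox overlapped at day 4, with 14233 TPM in day 4 replicate 2 and 14728 TPM in PBS replicate 3. Complex II in cKO overlapped at day 11 in TPM, with 463 TPM in day 11 replicate 3 and 414 TPM in PBS replicate 2.

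**Figure D1:**
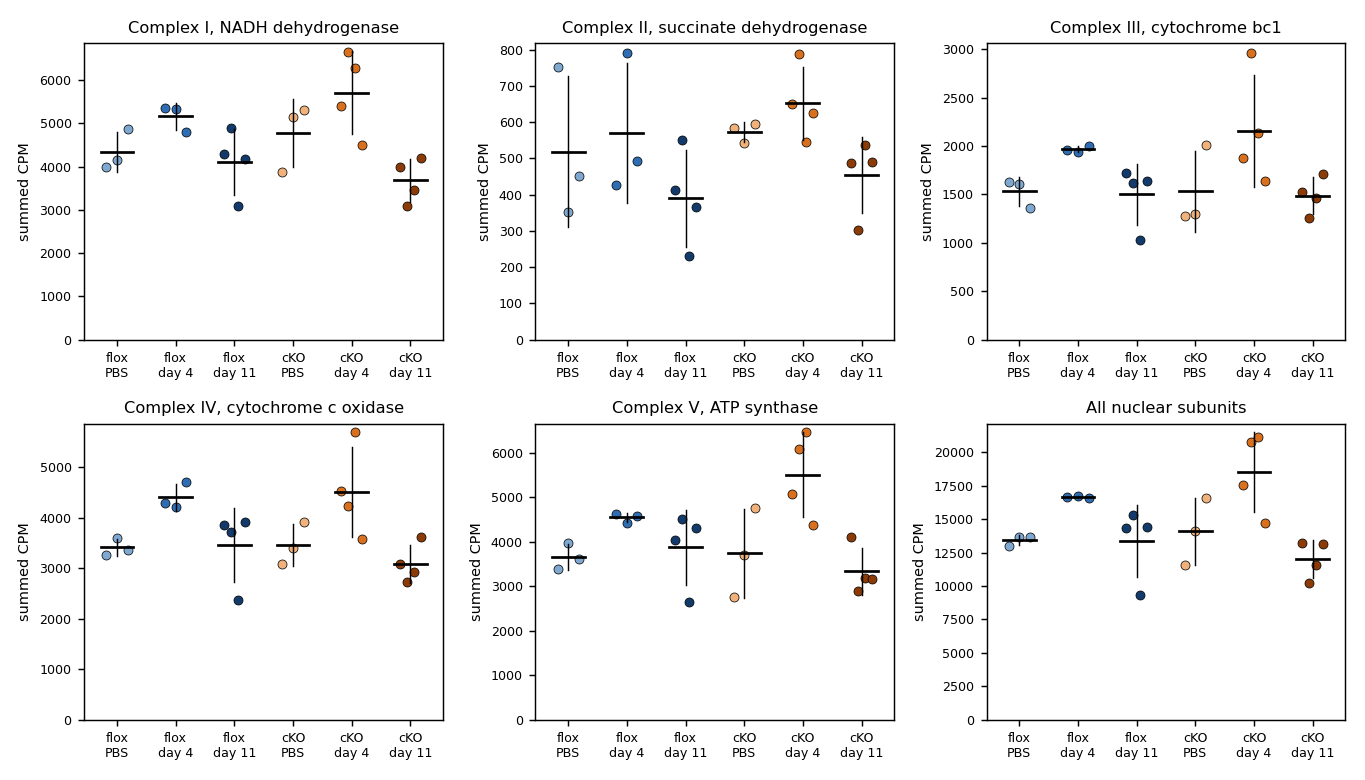
Summed CPM (vertical axis, from 0) of the subunit genes of each complex and of all 86 subunit genes in each of the 21 libraries, by group. Points are libraries, horizontal bars group means and vertical bars 1 SD; day 4 means are the highest of each genotype in every panel (for complex II in cKO not in TPM), and the flox day 4 and PBS libraries do not overlap for complexes III, IV and V (complex V overlaps in TPM).

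At day 4 in flox mice, most tested genes of complexes I, III, IV and V had a fold change above 0, but none passed the adjusted threshold. Of 87 tested members 60 had a fold change above 0 (69.0%, against 52.4% of all genes tested), with a median log2 fold change of 0.35 against 0.079 over all genes. By edgeR 0 members and 0% of all genes were called at an adjusted p under 0.05, while 9 members were higher at an unadjusted p under 0.05 (5.55% of all genes were) and 0 were lower (2.38% of all genes). DESeq2 called 2 members, Ndufa4l2 and Sdhaf3, which both had 0 reads in all 3 controls, and it called 8.63% of its genes; voom called 0 (0.295% of all genes). Without overlap between the groups, 20 members were above their controls (6.81% of all genes) and 1 was below (3.89%). Those 20 became 32 without flox PBS replicate 3. The median standard error of a member was 0.58 on the log2 scale, larger than the median change. The proximal tubule markers lay on the same side: 15 of 17 had a fold change above 0, with a median of 0.59, and their sum was 2437, 4464 and 3156 CPM under PBS and 5153, 6697 and 2351 CPM at day 4. With tubule level as a covariate, 46 members were higher and their median was 0.055. The sum of the 8 glomerular endothelium markers lay the other way without overlap, at 6934, 5045 and 5756 CPM under PBS and 3787, 4692 and 3820.2 CPM at day 4 (2 of 8 higher, median -0.22), and its part in the result was not tested.

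Complex I holds 7 core subunits, which carry the electron path, and 29 accessory ones in this list. In flox at day 4, 23 of its 36 tested genes were higher, with a median of 0.34. Ndufab1, the mitochondrial acyl carrier protein that is also part of complex I, was at 7.46, 3.64 and 37.1 CPM under PBS and 138, 64.1 and 53.2 CPM at day 4 (log2 fold change 2.40 ± 0.96 (SE), edgeR adjusted p = 0.59). Its libraries did not overlap. Ndufs8, a core iron-sulfur subunit, lay the other way at 87, 35.7 and 122 CPM and 35.7, 10.8 and 33.6 CPM (log2 fold change -1.61 ± 0.79 (SE), edgeR adjusted p = 0.59), and it was the 1 member below every control. Of the complex I genes with the highest mean CPM, 2 accessory ones differed little: Ndufa2 was at 323 ± 62.9 (SD, n = 3) and 363 ± 90.6 (SD, n = 3) CPM, and Ndufa12 at 279.6 ± 49.3 (SD, n = 3) and 295 ± 18.7 (SD, n = 3) CPM, with overlapping libraries. Ndufb8, whose protein is often used to detect complex I, was at 187, 223 and 302 CPM and 422, 373 and 238 CPM, where 1 day 4 library fell within the control range.

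Complex II is the enzyme succinate dehydrogenase of the citric acid cycle: Sdha and Sdhb form its catalytic part and Sdhc and Sdhd anchor it in the membrane. Its sum in flox was 519 ± 209 (SD, n = 3) CPM under PBS and 570.1 ± 193 (SD, n = 3) CPM at day 4. Sdhb was at 448, 213 and 288 CPM under PBS and 162, 506 and 227 CPM at day 4, and Sdha at 197.3, 137 and 116 CPM and 192, 188 and 128 CPM, all overlapping. Sdhc was at 102, 2.59 and 44.6 CPM and 73.4, 96.3 and 139 CPM. Sdhd was hardly read, with 0 reads in 11 of 21 libraries and its highest level at 30.0 CPM in a day 11 flox library, so no comparison of it is given.

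In complex III (cytochrome bc1), 7 of 9 genes were higher in flox at day 4, with a median of 0.61, and they included both large core proteins. Uqcrc2 was at 152.9, 181 and 179.8 CPM under PBS and 331, 205 and 314 CPM at day 4, and Uqcrc1 at 36.0, 42.1 and 96.0 CPM and 178, 109 and 141 CPM (log2 fold change 1.30 ± 0.57 (SE), edgeR adjusted p = 0.59). Neither gene overlapped between the groups. The hinge protein gene Uqcrh, which had the highest mean CPM of the complex, did overlap, at 478, 402 and 272 CPM and 377, 398 and 251 CPM. So did the small subunit genes Uqcr10 (288 ± 126 (SD, n = 3) and 357 ± 24.6 (SD, n = 3) CPM) and Uqcrq (203.9 ± 45.0 (SD, n = 3) and 312 ± 90.8 (SD, n = 3) CPM).

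Complex IV (cytochrome c oxidase) had the highest median of the complexes in flox at day 4, 0.75, with 11 of 17 genes higher and 7 above every control. Cox5a, a nuclear subunit of the enzyme and the member with the smallest p there, was at 82.7, 21.2 and 72.5 CPM under PBS and 165, 121 and 316 CPM at day 4 (log2 fold change 1.77 ± 0.63 (SE), edgeR adjusted p = 0.59). Cox8a, the ubiquitous form of the smallest subunit, was at 651, 524 and 557 CPM and 1059.9, 831 and 834 CPM (log2 fold change 0.65 ± 0.26 (SE), edgeR adjusted p = 0.59). Both genes lay above all controls in all 3 libraries. Cox6a1 was at 343, 418 and 421 CPM and 579, 574 and 828 CPM (log2 fold change 0.75 ± 0.31 (SE), edgeR adjusted p = 0.59), again without overlap. Cox6c, another small nuclear subunit, overlapped at 655, 682 and 614 CPM and 646, 837 and 743 CPM.

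Complex V makes ATP in its F1 head, of which Atp5a1 and Atp5b encode the alpha and beta subunits, driven by the turning of the c ring. In flox at day 4, 13 of its 16 genes were higher, with a median of 0.17. The c ring gene Atp5g3 was at 304, 283 and 330.4 CPM under PBS and 522, 519 and 584 CPM at day 4 (log2 fold change 0.82 ± 0.37 (SE), edgeR adjusted p = 0.59), without overlap. Atp5b was at 202, 344 and 277 CPM and 561, 343 and 503 CPM, where 1 day 4 library fell just under the highest control. Atp5a1 (482 ± 227 (SD, n = 3) and 545 ± 87.3 (SD, n = 3) CPM) and Atp5k (452 ± 190.0 (SD, n = 3) and 561 ± 104 (SD, n = 3) CPM) overlapped.

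**Figure D2:**
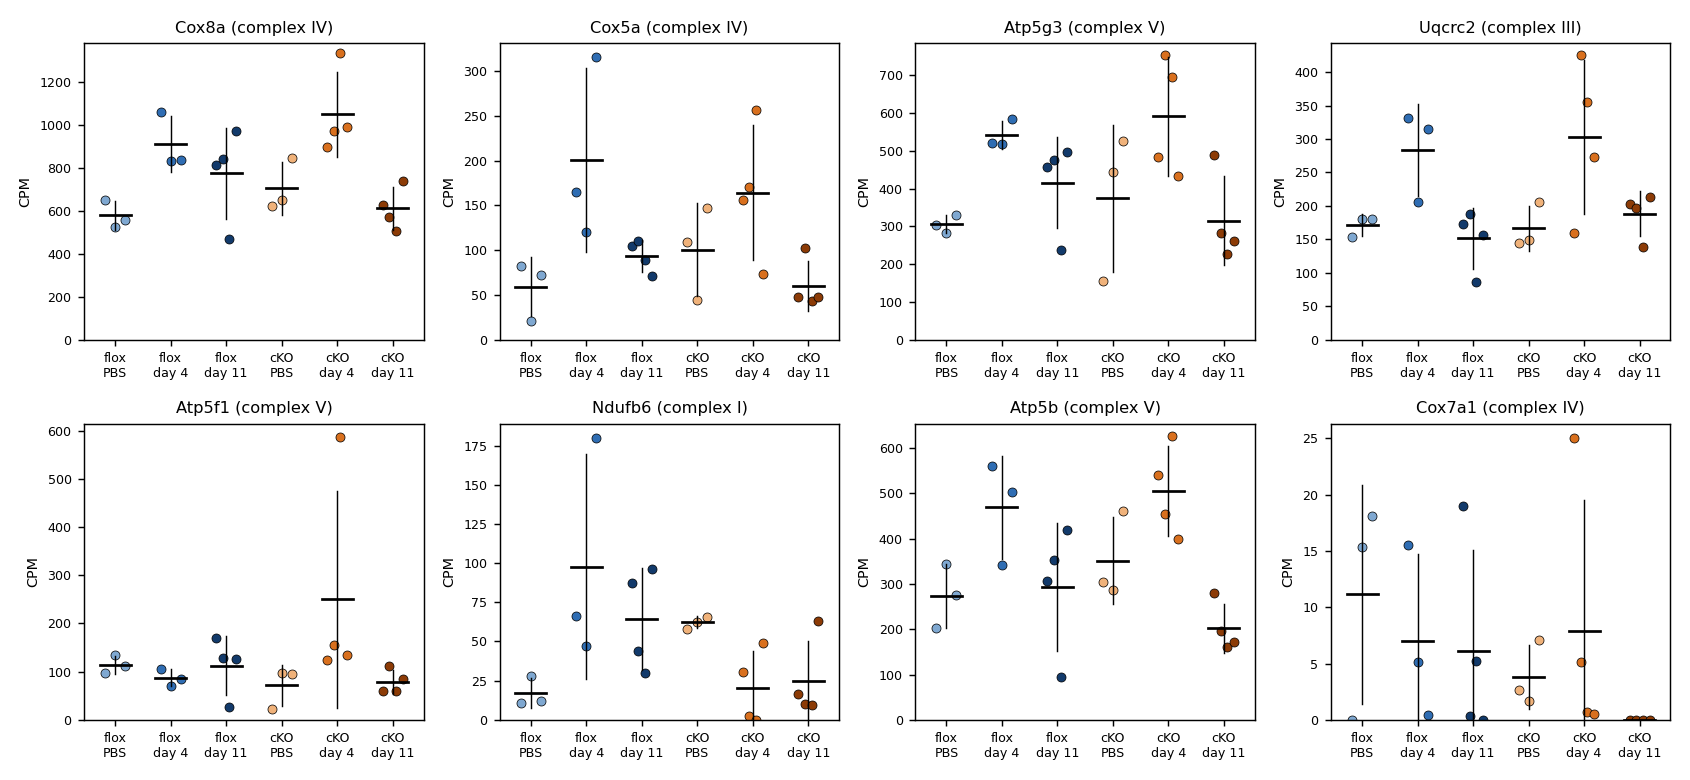
CPM (vertical axis, from 0) of 8 subunit genes in each of the 21 libraries, by group; points are libraries, horizontal bars means and vertical bars 1 SD, drawn no lower than 0. Cox8a, Cox5a, Atp5g3 and Uqcrc2 lie above all controls at day 4 in flox, Ndufb6 goes in opposite directions in the 2 genotypes at day 4, and Cox7a1 is at 0 in all 4 cKO day 11 libraries.

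In cKO mice at day 4 most members again had a fold change above 0, while most genes at large did not. Again none passed the adjusted threshold. Of 87 members 62 were higher (71.3%, against 45.4% of all genes), with a median log2 fold change of 0.38 against -0.094. No member and 0% of all genes were called by edgeR, with 8 members higher at an unadjusted p under 0.05 (2.21% of all genes) and 0 lower (5.95%). DESeq2 called 1 member, Atp5f1 (6.08% of its genes), and voom 0 (0.259%). Here 6 members lay above every control (1.37% of all genes) and 1 below (4.76%); the 6 became 17 without cKO PBS replicate 3, 14 without cKO day 4 replicate 4, and 10 without cKO PBS replicate 2 or without cKO day 4 replicate 1. Of the 17 tubule markers 10 were higher, with a median of 0.12, and with tubule level as a covariate the members' median was 0.46 with 62 higher. Without cKO day 4 replicate 3 the median was 0.35.

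The other 5 genes of the rule had 4 fold changes above 0 in flox and 3 in cKO at day 4. By complex, 22 of 36 genes of complex I were higher (median 0.17), 1 of 4 of complex II (-0.21), 7 of 9 of complex III (0.46), 15 of 17 of complex IV (0.50) and 14 of 16 of complex V (0.48). Cox8a was at 619, 647 and 844 CPM under PBS and 895, 971, 1335 and 987 CPM at day 4 (log2 fold change 0.57 ± 0.24 (SE), edgeR adjusted p = 0.60), without overlap, as in flox. Atp5f1, a subunit of the peripheral stalk of complex V, was at 23.1, 97.6 and 94.4 CPM and 123.1, 154.7, 586 and 135 CPM (log2 fold change 1.80 ± 0.64 (SE), edgeR adjusted p = 0.60). Its libraries did not overlap, but replicate 3 held 586 CPM, and without that library the log2 fold change was 0.94 (edgeR adjusted p = 0.82). Ndufv3, an accessory subunit at the NADH-oxidising end of complex I, was at 28, 94.6 and 113 CPM and 201, 451, 214 and 72.8 CPM (log2 fold change 1.58 ± 0.58 (SE), edgeR adjusted p = 0.60), where replicate 4 fell within the control range. Uqcr11, the smallest subunit of complex III, was at 154.95, 75.6 and 118 CPM and 226, 352, 246 and 245 CPM (log2 fold change 1.20 ± 0.46 (SE), edgeR adjusted p = 0.60) without overlap. Cox5a overlapped in cKO, at 109.6, 44.6 and 147 CPM and 156, 170.2, 257 and 72.8 CPM, and so did Atp5g3, at 155.1, 443 and 526 CPM and 484, 755, 695 and 432 CPM.

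Ndufb6, an accessory subunit of the membrane arm of complex I, was the 1 member that lay on opposite sides of its controls in the 2 genotypes. In flox it was at 10.7, 27.9 and 12.2 CPM under PBS and 66.0, 47.3 and 180.1 CPM at day 4. In cKO it was at 58.2, 62.3 and 65.9 CPM and 30.8, 2.38, 0.0767 and 48.8 CPM. Every flox library at day 4 was above, and every cKO library below, its own controls, and the controls themselves did not overlap between genotypes. The interaction was -4.13 ± 1.78 (SE) on the log2 scale (edgeR adjusted p = 0.56), which did not pass.

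Averaged over genotypes, day 4 against PBS gave 69 of 87 members higher (79.3%, against 50.5% of all genes), with a median of 0.34 against 0.014. EdgeR called 0 members (0.0216% of all genes), with 16 higher (5.36% of all genes) and 1 lower (3.92%) at an unadjusted p under 0.05. The smallest p was that of Cox8a (log2 fold change 0.61 ± 0.18 (SE), edgeR adjusted p = 0.38), followed by Ndufv3, Atp5g3, Cox5a, Uqcrc2 and Ndufab1, all with the same adjusted p of 0.38. DESeq2 called 7 members (9.63% of its genes), and 5 of these had reads in every group: Cox8a, Cox5a, Uqcrc2, Ndufab1 and Ndufv3, with DESeq2 adjusted p from 0.0115 to 0.0401 and log2 fold changes of 0.63, 1.27, 0.82, 1.94 and 1.28. The other 2, Ndufa4l2 and Sdhaf3, had at least 1 group without reads. Voom called 0 (0.0935%). The 1 lower member, Cox7a2l, which is known as a factor in joining complexes into supercomplexes, had a log2 fold change of -0.52 ± 0.26 (SE). It was at 202 ± 76.5 (SD, n = 3) CPM in flox and 214 ± 66.6 (SD, n = 4) CPM in cKO at day 4, against 316 ± 75.6 (SD, n = 3) and 282 ± 76.3 (SD, n = 3) CPM under PBS.

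**Figure D3:**
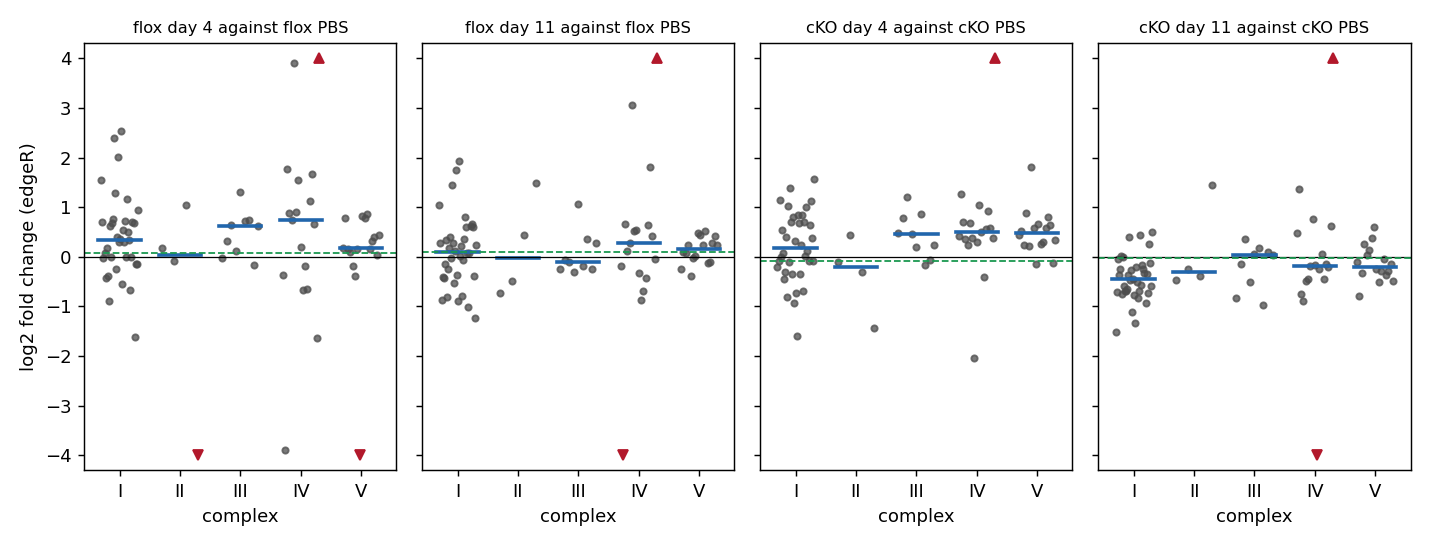
Log2 fold change (vertical axis) of each tested subunit gene by complex (horizontal axis) in the 4 comparisons of serum with PBS. Dots are genes, and red triangles are genes beyond 4 or -4 on the log2 scale, drawn at that edge. Blue bars are medians of a complex. Dashed green lines are the median of all genes tested (0.079, 0.095, -0.094 and -0.032 from left to right). The medians of complexes I, III, IV and V lie above that line at day 4 in both genotypes. At day 11 in cKO the medians of complexes I, II, IV and V lie below it.

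Day 11 gave no such shift in flox mice. There 49 of 87 members were higher (56.3%, against 53.2% of all genes) with a median of 0.10, against 0.095 over all genes. Calls by edgeR were 0 for members and 0% for all genes, with 1 member higher (5.90% of all genes) and 0 lower (2.35%) at an unadjusted p under 0.05; DESeq2 called 1, Ndufa4l2 (8.71%), and voom 0 (0.165%). Only Ndufb6 lay above every control (3.86% of all genes), and 0 members lay below (2.53%). The count depended on single libraries: without replicate 3 of day 11 it was 11 and the median 0.32, without flox PBS replicate 3 it was 7, and without day 11 replicate 1 or 4 it was 3. Without day 11 replicate 2 the median was -0.0062 (41 higher). By complex, 21 of 36 genes of complex I were higher (median 0.10), 2 of 4 of complex II (-0.028), 3 of 9 of complex III (-0.10), 10 of 17 of complex IV (0.28) and 11 of 16 of complex V (0.16). Cox8a was at 813, 841, 469 and 968 CPM and Atp5b at 308, 353, 93.8 and 418 CPM, and in both genes replicate 3 was the lowest.

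In cKO mice at day 11 most members had a fold change below 0, with the lowest median of the complexes in complex I. Of 87 members 23 were higher and 64 lower (26.4% higher, against 47.5% of all genes), with a median of -0.28 against -0.032. EdgeR called 0 members (0.0504% of all genes), with 0 higher (2.59% of all genes) and 2 lower (3.42%) at an unadjusted p under 0.05. DESeq2 called 2, Cox7a1 and Sdhaf3 (4.91% of its genes), both with 0 reads in all 4 day 11 libraries, and voom called 0 (0.576%). Without overlap, 0 members lay above every control (2.75% of all genes) and 3 below (4.03%): Ndufs7, Atp5b and Cox7a1. That 3 became 15 without cKO PBS replicate 1, 11 without day 11 replicate 1, 7 without day 11 replicate 3, 6 without cKO PBS replicate 2 or day 11 replicate 2, and 5 without day 11 replicate 4. The tubule markers lay on the same side, with 1 of 17 higher and a median of -0.77. The 12 distal nephron markers did too (2 higher, median -0.92), and their sum did not overlap, at 1517, 2126 and 1154 CPM under PBS and 459.9, 299, 1017 and 958 CPM at day 11. So did the 5 red cell markers (0 higher, median -3.03), while 8 of 10 macrophage markers were higher (1.42), and the part of these cells in the result was not tested. With tubule level as a covariate 39 members were higher and the median was -0.048.

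In complex I, 5 of 36 genes were higher and the median was -0.45. Ndufs7, a core iron-sulfur subunit, was at 166, 144 and 203.8 CPM under PBS and 139, 77.7, 86.9 and 111 CPM at day 11 (log2 fold change -0.72 ± 0.42 (SE), edgeR adjusted p = 0.93), with no overlap. Complexes IV (6 of 17 higher, median -0.18) and V (5 of 16, -0.20) lay nearer to 0, and complex III was balanced (5 of 9, 0.040). In complex II, Sdha, Sdhc and Sdhb had log2 fold changes of -0.47, -0.38 and -0.24, and the hardly read Sdhd had 1.45. Atp5b, the catalytic beta subunit of ATP synthase, was at 304, 287 and 462 CPM and 281, 195, 160.2 and 171 CPM (log2 fold change -0.80 ± 0.36 (SE), edgeR adjusted p = 0.81). Its highest day 11 library lay just under its lowest control. Averaged over genotypes, day 11 against PBS had 34 of 87 members higher (52.9% of all genes) and a median of -0.11 against 0.068. EdgeR called 0 members (0.122% of all genes), with 1 higher (6.17% of all genes) and 2 lower (2.94%) at an unadjusted p under 0.05; DESeq2 called 1 (Ndufa4l2; 8.93% of its genes) and voom 0 (0.568%). With tubule level as a covariate the median took the other sign (0.045, with 50 higher).

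Between genotypes edgeR called no member at any stage. Under PBS, 53 of 87 were higher in cKO (60.9%, against 52.6% of all genes; median 0.11 against 0.078). Of the members edgeR called 0, as it did 0% of all genes, with 1 higher (4.62% of all genes) and 0 lower (1.40%) at an unadjusted p under 0.05, DESeq2 2 (Ndufa4l2 and Sdhaf3; 7.17% of its genes) and voom 0 (0.180%). Ndufs6, a zinc-binding subunit of complex I, was at 53.3, 126 and 118 CPM in flox and 229, 227 and 194 CPM in cKO (log2 fold change 1.13 ± 0.45 (SE), edgeR adjusted p = 0.73), 1 of 6 members without overlap above (7.27% of all genes), while 0 lay below (2.96%). The lowest p in the other direction was that of Ndufa5, at 591, 233 and 369.9 CPM and 201, 277 and 214 CPM (log2 fold change -0.79 ± 0.47 (SE), edgeR adjusted p = 0.81). The median under PBS took the other sign with tubule level as a covariate (-0.11, with 36 members higher) and without cKO PBS replicate 3 (-0.063, with 39 higher). It was near 0 with the number of detected genes as a covariate (43 higher).

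At day 4, 54 of 87 members were higher in cKO (62.1%, against 45.8% of all genes; median 0.088 against -0.063). There were 0 edgeR calls among members and 0% among all genes, with 3 higher (2.14% of all genes) and 0 lower (5.27%) at an unadjusted p under 0.05; DESeq2 (6.13%) and voom (0.130%) called 0 members. Ndufb7, an accessory subunit, was at 116, 121 and 28.3 CPM in flox and 98.1, 403, 245 and 215 CPM in cKO (log2 fold change 1.44 ± 0.57 (SE), edgeR adjusted p = 0.66), and its lowest cKO library lay within the flox range. Ndufb5 was at 245, 95.2 and 225 CPM and 148, 95.6, 5.37 and 68.3 CPM (log2 fold change -1.25 ± 0.65 (SE), edgeR adjusted p = 0.70), also overlapping. The complex V genes Atp5f1 and Atp5d, which encodes the delta subunit, lay above all flox libraries (1.09% of all genes did), and Cox6b2 and Sdhaf2 lay below them (3.36%). At day 11, 26 of 87 were higher in cKO (29.9%, against 48.1% of all genes; median -0.17 against -0.023), with 0 members and 0% of all genes called by edgeR, 0 higher (2.73% of all genes) and 1 lower (3.14%) at an unadjusted p under 0.05, 1 DESeq2 call (Cox7a1; 3.80% of its genes) and 0 voom calls (0.0791%). No member was without overlap there (1.23% of all genes above, 1.29% below). By complex, 13 of 36 genes of complex I were higher in cKO at day 11, 3 of 9 of complex III, 5 of 17 of complex IV and 3 of 16 of complex V (median -0.29). Without flox day 11 replicate 3, the median over members was -0.43 and 21 were higher.

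The difference of the serum response between genotypes was tested directly. At day 4 the interaction had 42 of 87 members above 0 and a median of -0.055, against 43.3% of all genes above 0. No member and 0% of all genes were called by edgeR, with 2 members above 0 (1.93% of all genes) and 1 below (5.81%) at an unadjusted p under 0.05, DESeq2 2 (Ndufa4l2 and Sdhaf3; 8.54% of its genes) and voom 0 (0.0576%). At day 11 it had 32 above 0 and a median of -0.38, against 44.7% of all genes above 0. Calls by edgeR were 0 for members and 0% for all genes, with 0 members above 0 (1.83% of all genes) and 1 below (5.10%) at an unadjusted p under 0.05, DESeq2 1 (Ndufa4l2; 7.29% of its genes) and voom 0 (0%). The day 4 median took the other sign with DESeq2 or median-ratio size factors (both 0.075), with tubule level (0.32) or detected genes (0.071) as a covariate, and without any 1 of 6 libraries. These were flox PBS replicate 1 (0.070), cKO PBS replicates 2 (0.046) and 3 (0.19), flox day 4 replicates 1 (0.027) and 3 (0.033) and cKO day 4 replicate 4 (0.066).

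Several tissue-restricted isoforms of complex IV were read in only some of the libraries. Cox8b (heart and muscle) and Cox8c (testis) had 0 reads in all 21 libraries, which allows up to 0.00797 CPM at 3 counts over all libraries, beside Cox8a at 469 to 1335 CPM. Cox7a1, the heart and muscle form, was at 0, 15.3 and 18.1 CPM in flox and 2.65, 1.71 and 7.06 CPM in cKO under PBS, 15.5, 5.16 and 0.410 and 25.1, 5.17, 0.690 and 0.533 CPM at day 4, and 19, 0.296, 5.24 and 0 CPM in flox at day 11. It was at 0 in all 4 cKO day 11 libraries, at least 59.1-fold lower than the cKO PBS mean of 3.81 CPM and at least 95.1-fold lower than flox day 11 (3 counts over the group, counting error only; edgeR adjusted p = 0.81 and 0.84, DESeq2 adjusted p = 0.0396 and 0.00767). The smallest cKO PBS level was 1.71 CPM, and flox day 11 itself held 1 library at 0. Its common partner Cox7a2 was at 353, 267 and 372 CPM under PBS and 319.9, 109, 318 and 369.8 CPM at day 11 in cKO, with overlap.

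Ndufa4l2, a gene known to be induced by hypoxia, had 0 reads in all 3 flox PBS libraries and was at 25.7, 0 and 10.6 CPM at day 4 and 0, 2.20, 23.4 and 5.54 CPM at day 11 in flox. Against the floor of 3 counts over the flox PBS group, the means were at least 223-fold higher at day 4 and at least 143-fold higher at day 11 (edgeR adjusted p = 0.59 and 0.58), though 1 library of each group was at 0. In cKO it was at 0, 0.244 and 0 CPM under PBS, 0, 0, 0 and 49.1 CPM at day 4 and 0, 0, 27.3 and 0.116 CPM at day 11, so that replicate 4 at day 4 and replicate 3 at day 11 carried nearly all of it. Ndufa4, the common form, ran from 0.586 to 47.9 CPM over the 21 libraries. Cox4i2, the lung isoform, was above 10 CPM in 4 libraries: 2 flox PBS libraries (19.5 and 11.4 CPM), the same cKO day 4 replicate 4 (25.7 CPM) and the same cKO day 11 replicate 3 (28.8 CPM). For flox day 11 against PBS, where all 4 day 11 libraries lay at or under 0.166 CPM beside controls of 0, 19.5 and 11.4 CPM, edgeR gave an adjusted p of 0.58. The partner Cox4i1 ran from 115 to 572 CPM.

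Of the remaining restricted forms, Cox6a2 (heart and muscle) was above 0 in 9 libraries with at most 27.4 CPM, beside Cox6a1 at 235 to 828 CPM. Cox6b2 (testis) had reads in 17 of 21 libraries and reached 92.9 CPM in cKO day 11 replicate 4, beside Cox6b1 at 89.7 to 452 CPM. Cox7b2 was at 65.3 CPM in flox day 11 replicate 1, at 0.089 CPM in cKO PBS replicate 3 and at 0 in the other 19 libraries. The 3 genes for the c ring encode the same mature protein with different import sequences. Atp5g1 ran from 140 to 547 CPM and Atp5g3 from 155.1 to 755 CPM, while Atp5g2 went from 0 to 178.5 CPM and was at 0 in 6 libraries; more than 50% of its 3′ stretches are shared with other genes.

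**Figure D4:**
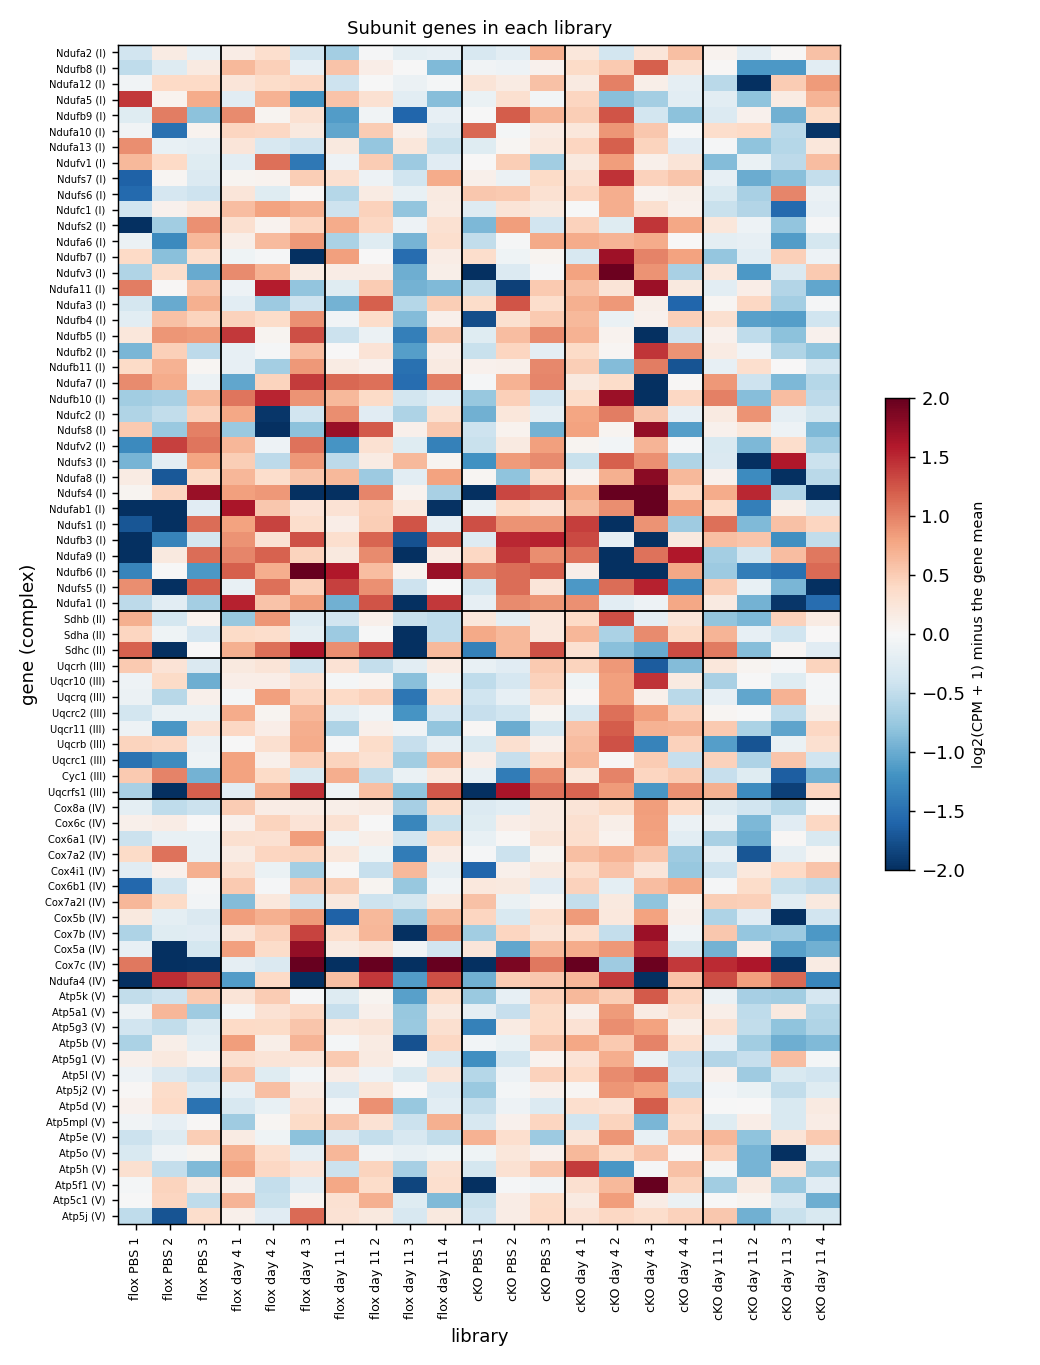
Log2(CPM + 1) minus the gene's mean over libraries (color) for the 75 tested subunit genes with reads in at least 19 of the 21 libraries (rows, by complex) in each library (columns, by group). Red is above and blue below the gene's mean; from 47 to 67 of the 75 genes lie above their mean in the 7 day 4 libraries, 11 do in flox day 11 replicate 3, and the other libraries range from 20 to 62, with the highest of these in cKO PBS replicate 3.

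Single subunits followed the rest of the set loosely from library to library. The Spearman correlation of a subunit with the mean of the other tested subunits over 21 libraries had a median of 0.36 and was above 0 for 75 of 82 genes, a description over libraries that share depth and tissue content. It was highest for Ndufa1 (0.77) and Atp5k (0.76) and lowest for Cox7a2l (-0.54). By complex, the median of this correlation was highest in complex III (0.41) and lowest in complex II (0.18), with complex V at 0.36. The median standard deviation within groups, in log2 CPM, was smallest in complex V (0.52) and largest in complex II (1.24). Complex II has only 4 genes, among them the hardly read Sdhd. Outside the set, the 5 genes most like its mean, among 3458 genes whose log2 CPM averaged 5 or more, were Car12, mt-Cytb, mt-Nd3, mt-Co2 and Idh1, with Spearman rho from 0.76 to 0.82 over the 21 libraries.

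The other genes of the pathway were taken from 5 lists. The 13 mitochondrially encoded subunits lay on the same side as the nuclear ones at day 4. In flox all 13 were higher (median 0.43), with 2 at an unadjusted p under 0.05 (5.55% of all genes were). Their sum was 51758, 57694 and 58223 CPM under PBS and 78505, 79881 and 66982 CPM at day 4, without overlap. At day 4 in cKO 11 of 13 were higher (0.28), and at day 11 3 of 13 in flox (-0.11) and 1 of 13 in cKO (-0.51). In cKO at day 11, 8 of them were lower at an unadjusted p under 0.05 (3.42% of all genes were). EdgeR and DESeq2 called 0 of the 13 in each of these comparisons. Voom called 1 in 2 of them, flox day 11 (0.165% of all genes) and cKO day 4 (0.259%). Their cKO sums were 55579, 63843 and 69122 CPM under PBS and 43793, 36601, 39222 and 48887 CPM at day 11, all 4 below every control.

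Of 46 tested assembly factors, which help build the complexes, 32 were higher at day 4 in flox (median 0.52) and 24 in cKO (0.14). Of 21 regulators of mitochondrial biogenesis, 9 and 11 were higher (medians -0.28 and 0.51), of 16 mobile carriers and coupling proteins 11 and 8 (0.31 and 0.037), and of 27 mitochondrial ribosomal proteins 13 and 17 (-0.014 and 0.14). At day 11 in cKO the higher counts were 19, 9, 4 and 13. In the 4 comparisons with PBS edgeR called 0 genes of these 4 lists, with 0 to 3 genes of a list higher and 0 to 2 lower at an unadjusted p under 0.05, 0 to 3 DESeq2 calls and 0 or 1 voom call. Over all genes the shares in those comparisons were 2.21% to 5.90% and 2.35% to 5.95% at an unadjusted p under 0.05, 4.91% to 8.71% by DESeq2 and 0.165% to 0.576% by voom. Among the biogenesis regulators Yy1, the factor whose promoter letters were searched, had a log2 fold change of -1.05 ± 0.53 (SE; edgeR adjusted p = 0.59) in flox and -1.15 ± 0.49 (SE; adjusted p = 0.60) in cKO at day 4.

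The 1 pathway gene called by edgeR was Pet117, a chaperone for complex IV assembly, at day 11 against PBS averaged over genotypes (adjusted p = 0.0466). It had 0 reads in all 6 PBS libraries. At day 11 it was at 0, 27.2, 0 and 0 CPM in flox and 25.2, 40.6, 73.5 and 93.5 CPM in cKO, at least 1270.5-fold higher on average than the floor of 3 counts over the PBS libraries. At day 4 it was at 96.9, 48.9 and 56.9 CPM in flox and 10.3, 144, 0 and 4.81 CPM in cKO (averaged over genotypes, edgeR adjusted p = 0.0800). All 4 cKO libraries but only 1 of 4 flox libraries held reads at day 11, and the genotypes at that day did not differ past the threshold (log2 fold change 3.09 ± 2.02 (SE), edgeR adjusted p = 1).

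Beside the subunit sums, group means also differed in mitochondrially encoded transcripts, tubule transcripts and ribosomal RNA, which are plotted against them. In the order flox PBS, flox day 4 and flox day 11, the mitochondrially encoded sum had means of 55892, 75123, 52469 CPM, the tubule sum 3352, 4734, 2412 CPM and the ribosomal RNA gene 22.6, 18.7, 20.4% of reads. In cKO the means in that order were 62848, 75252, 42126 CPM, 3983, 4642, 2176 CPM and 21.6, 17.5, 29.0%. In both genotypes the means of the mitochondrially encoded sum and of the tubule sum were highest at day 4. The tubule sums at day 4 overlapped those under PBS. The mean of the ribosomal RNA gene was below PBS at day 4 in both genotypes, but the libraries overlapped. Its share ran from 21.9 to 22.9% under PBS and 15.2 to 23.3% at day 4 in flox, and from 17.3 to 25.4% and 14.9 to 20.7% in cKO. The part of tubule content in the day 4 and day 11 differences was not tested beyond the covariate values given above.

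**Figure D5:**
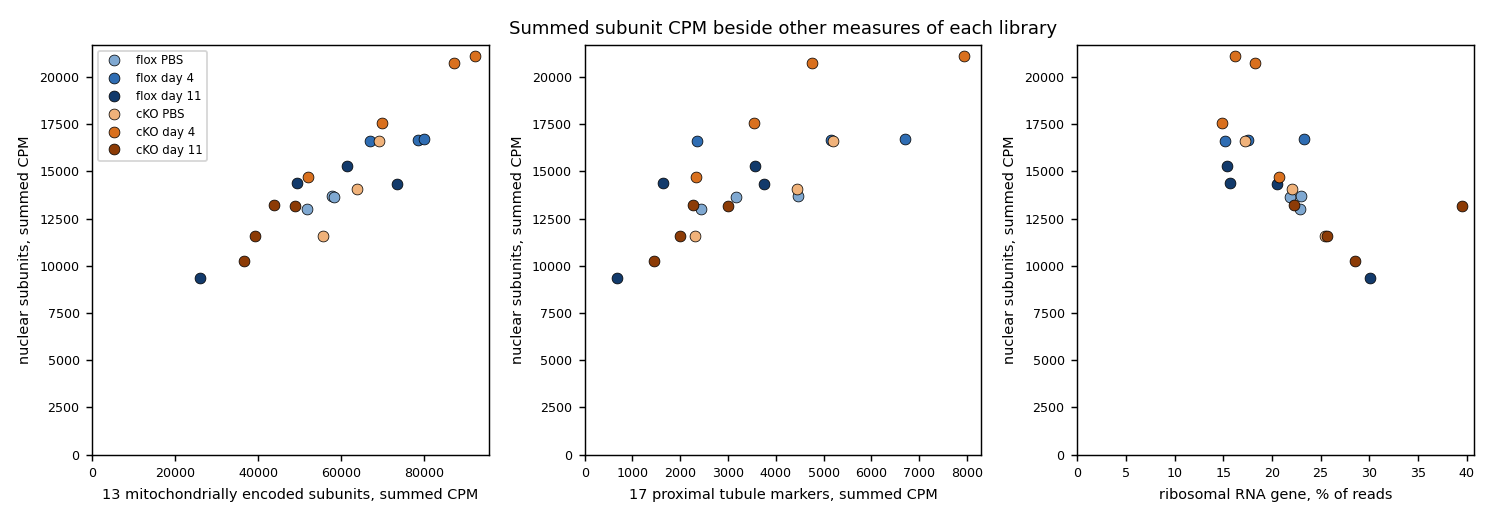
Summed CPM of the 86 nuclear subunit genes (vertical axes) beside the summed CPM of the 13 mitochondrially encoded subunits (left), the summed CPM of 17 proximal tubule markers (middle) and the percent of reads on 1 ribosomal RNA gene (right), each point 1 of 21 libraries colored by group. The library with the lowest subunit sum (flox day 11 replicate 3) has the lowest value in the left and middle panels.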

How the data were processed

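Glomeruli from 21 mice in 6 groups were profiled by 3′ tag RNA-seq. The deposited tables give estimated counts and TPM per gene, per the file headers; the tests used the deposited estimated counts, and the deposited TPM (which divide by transcript length) served as an alternative. FastQC, fastp, DRAGEN, Picard and mm10 are named in the submitters' processing notes, without versions or roles. Handling of strand, duplicates and shared reads is not given in those notes or headers. Of 35598 genes, 35513 (99.8%) were matched by identifier to GENCODE M21 symbols, and 85 were not. Of the estimated counts above 0, 95.2% were whole within 0.005. Library totals ran from 4550550 to 24295712, with a median of 19470098, and no libraries held identical values. Counting intervals and floors of 3 counts cover counting error only.

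Rounded counts of all 21 libraries entered 1 robust quasi-likelihood model in edgeR 4.0.16 (R 4.3.3), with a mean for each of the 6 groups, TMM scaling (0.751 to 1.12) and 15 residual degrees of freedom. The filter filterByExpr, at a minimum of 10 counts, left 13898 genes; calls were at an adjusted p (Benjamini-Hochberg, over all of them) under 0.05. Fold changes are log2 with a standard error from the F statistic. The script was tested on simulated data. DESeq2 1.42.0, voom in limma 3.58.1, other scalings, filters, covariates and left-out libraries were alternatives. The covariates were tubule level and the count of detected genes. Removing cKO day 4 replicate 3 (fewest genes detected) and cKO day 11 replicate 3 (fewest reads) together, called the doubted libraries, was chosen after seeing the data. Figures used matplotlib 3.10.9 in Python 3.11.15.

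The members, the gene lists and the alternatives were chosen with earlier results of these data known. Named were the 3 genes of highest mean CPM in each complex, the isoform families, and the genes of smallest p in each direction of each comparison; Pet117, Cox7a2l, Yy1 and others outside that rule were chosen after their values were seen. Summed CPM of a complex is the sum over its genes. Same-numbered libraries of different groups share only a number, since no label ties them.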

Additional observations from a re-analysis of the deposited data

Results flagged for a closer look

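In groups of 4 libraries, a library was marked where its gap to the nearest other library, divided by the range of the group, passed Dixon's critical value of 0.829. Of 119 such groups of complexes and named genes, 20 were marked. The critical value marks about 1 in 20 groups of independent, normally distributed values. These groups are not of that kind, since some hold several libraries at 0 and the sums share genes. No excess of marks is therefore read from the count. Flox day 11 replicate 3 was the low library for complex III (1025 CPM), complex IV (2379 CPM), all subunits (9348 CPM), Uqcrq (83.0 CPM) and Atp5g3 (236 CPM). It was the high library, at 0.166 CPM, for Cox4i2, which was at 0 in the other 3.

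In cKO at day 4, replicate 3 was high for Atp5f1 (586 CPM) and replicate 2 for Cox6a2 (27.4 CPM). Replicate 4 of that group was high for Cox4i2 (25.7 CPM), Cox6b2 (13.9 CPM) and Ndufa4l2 (49.1 CPM) and low for Cox7a2 (219.8 CPM). In cKO at day 11, replicate 3 was high for Cox4i2 (28.8 CPM) and Ndufa4l2 (27.3 CPM), and replicate 2 for Cox5a (102 CPM). Replicate 4 was high for Cox6a2 (12.8 CPM), Cox6b2 (92.9 CPM) and Ndufb6 (62.9 CPM). Flox day 11 replicate 2 was high for Cox6a2 (14.8 CPM) and Sdhb (293 CPM). Cox4i2, Cox6a2, Cox6b2 and Ndufa4l2, which are restricted isoforms, make up 10 of the 20 marks.

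Ndufb6 was marked because every flox library at day 4 lay above its controls and every cKO library below. The genotype by day 4 interaction was -4.13 on the log2 scale and did not pass the threshold (edgeR adjusted p = 0.56).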

How the results depend on the processing

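EdgeR called 0 members in each of the 11 comparisons under each alternative other than DESeq2. DESeq2 called 2 in flox at day 4, 1 in flox at day 11, 1 in cKO at day 4, 2 in cKO at day 11, 2 between genotypes under PBS, 1 between genotypes at day 11, 2 and 1 in the day 4 and day 11 interactions, and 7 and 1 at day 4 and day 11 averaged over genotypes. With tubule level as a covariate 39 members were higher in cKO at day 11 (23 without it), and the day 4 interaction had a median of 0.32 (-0.055 without it). By voom 20 members were above 0 in the day 11 interaction (32 by edgeR). With both doubted libraries removed, Ndufa4l2 in cKO at day 11 reversed to -1.09 and Cox4i2 between genotypes at day 11 to -0.78 on the log2 scale. Leaving out 1 library at a time, they ranged from -1.08 to 9.89 and from -0.78 to 10.01. Both low ends came without cKO day 11 replicate 3, which holds nearly all of their reads in that group. The groups they were compared with held reads in only 1 library each: 5 reads of Ndufa4l2 in cKO PBS replicate 2 and 2 reads of Cox4i2 in flox day 11 replicate 3. The source of the high ends was not tested.

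In the deposited TPM the log2 ratios were 0.15 and 0.12 for complexes III and IV in cKO at day 4. For complexes I to V they were -0.84, -0.92, -0.49, -0.70 and -0.68 in cKO at day 11, and -0.59, -0.24, -0.38, -0.55 and -0.65 between genotypes at day 11; complex I between genotypes at day 4 was at -0.078. At day 11 in cKO, replicate 4 held 7800.0 TPM over all subunits and the other 3 libraries 29746 to 46472 TPM. Without it, chosen after seeing the data, the TPM log2 ratios were -0.53, -0.60, -0.18, -0.37 and -0.34 against PBS and -0.29, 0.079, -0.069, -0.23 and -0.31 between genotypes, where complex II took the other sign than with it. The cause of the rest was not tested. With unadjusted library totals 0 members lay above all controls in flox at day 11 and 5 below in cKO at day 11. Leaving out 1 library at a time, members above all controls ranged from 23 to 32 in flox at day 4, from 1 to 11 in flox at day 11 and from 6 to 17 in cKO at day 4, and members below from 3 to 15 in cKO at day 11.

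The fit with replicate number as a block also called 0 members, with medians of 0.36 in flox and 0.39 in cKO at day 4. Same-numbered libraries did not deviate together (48 pairs, correlations from -0.051 to 0.030). The median standard error of a member was 0.54 to 0.58 on the log2 scale in flox day 4, flox day 11 and cKO day 4, and the smallest library held 4550550 reads.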
